A study of Homo sapiens with 18 samples.

Results

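MGMT and 5 other genes that deal with alkylation damage to DNA were followed in cells of MEL624, an established human melanoma line, that had been edited at PCIF1. The 6 genes are MGMT, ALKBH2, ALKBH3, MPG, MSH6 and PMS2, of 15258 genes in the deposited table, and all 6 passed the filter of a mean of at least 1 TPM (transcripts per 1e+06 transcripts). They were found by matching the table's Ensembl identifiers to gene symbols. MGMT was chosen because it had no read in the control line and was read in both knockout clones, so its values against control are given as a description without a test. The other 5 were chosen by function, to set beside it.

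The libraries were input mRNA, the fraction sequenced before any immunoprecipitation with an antibody to m6A. They came from 2 clonal PCIF1 knockout lines, KO1 and KO2, and from 1 wild-type MEL624 control line that had received a random sgRNA. Each line had 3 replicates, A to C, described as biological, which gave 9 libraries, and 9 matching immunoprecipitated libraries were not analysed here. Cells were grown in DMEM with serum, and the labels name no drug or alkylating agent. PCIF1 is the enzyme that adds m6Am, a methylated adenosine next to the cap of mRNAs that start with A. Each knockout line is 1 clone and there is 1 control line, so an effect of PCIF1 loss and a difference between single lines cannot be told apart, and p-values measure only the spread between libraries of a line.

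Alkylating agents attach methyl groups to DNA bases, and cells remove them by separate routes. MGMT takes a methyl group from the oxygen of guanine onto its own cysteine and is used up in doing so. In many tumours, glioma for example, the gene is silenced together with methylation of its CpG-rich promoter, and such cells are more sensitive to temozolomide. ALKBH2 and ALKBH3 oxidise methyl groups off adenine and cytosine, ALKBH2 mainly in double-stranded DNA and ALKBH3 in single-stranded DNA and RNA. MPG is the glycosylase that cuts out alkylated purines and opens base excision repair. MSH6 is part of the complex that recognises mispairs, those of methylated guanine among them, and PMS2 is part of the one that nicks the strand before it is cut back.

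The promoter of MGMT is shown because its CpG content is what the gene is known for, and because the gene had no read in 1 line and was read in the others. All 6 genes were found in the RefSeq promoter table (GRCh38.p14, 35116 promoters). The 250 bases before the MGMT start, chr10:129466991-129467240 on the plus strand, are printed with every CG in capitals.

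MGMT: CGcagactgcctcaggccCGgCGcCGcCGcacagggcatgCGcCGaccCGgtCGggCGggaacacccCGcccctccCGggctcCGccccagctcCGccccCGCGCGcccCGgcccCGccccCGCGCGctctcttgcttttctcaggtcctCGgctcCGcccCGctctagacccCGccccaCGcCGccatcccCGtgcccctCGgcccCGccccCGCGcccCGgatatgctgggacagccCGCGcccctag

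This stretch holds 36 CG pairs, and 4.85% of all promoters hold as many, against a median of 11. Its GC content is 80.4%. The GC box GGGCGG, searched on both strands, occurs 8 times, a number that 0.308% of promoters reach, while 42.6% hold at least 1. The other 5 promoters hold 19 (ALKBH2), 18 (ALKBH3), 27 (MPG), 34 (MSH6) and 22 (PMS2) CG pairs over the same length. DNA methylation was not measured in these libraries.

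The bases around each start are shown because PCIF1 acts on mRNAs that begin with A. Each line gives 20 bases before the RefSeq start and 10 from it, with the start base in capitals.

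MGMT: gggacagcccgcgcccctagAacgctttgc
ALKBH2: cgaccgattcgctggggcgcGtctttccca
ALKBH3: gttgctggagtcggtgcttcActcttaagg
MPG: cgcaggcgccgctccgccccGgtcctaggg
MSH6: ggcggagcgcgcctccccccAgatttcccg
PMS2: tggagcacaacgtcgaaagcAgccaatggg

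By this annotation 4 of the 6 genes start with A, and ALKBH2 and MPG start with G. Over all promoters of that table, 44.4% start with A and 33.6% with G. The start that MEL624 cells use was not measured. For MSH6, 4 starts are listed and for PMS2 2, and the most upstream one listed is shown. The start shown for MSH6 is base 47783145, inside the gene span given below, which begins at 47695530. That of MPG is base 78225, inside a span that begins at 77007.

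MGMT (ENSG00000170430, chromosome 10, 129467190 to 129770983, plus strand, hg38) was read in each of the 6 clone libraries and in none of the 3 control libraries. In KO1 libraries A, B and C it had 142, 166 and 141 reads, which is 15.98, 16.10 and 15.36 TPM. In KO2 libraries A, B and C it had 175, 147 and 195 reads, which is 19.5, 18.8 and 19.3 TPM. The control libraries had 0 reads each, among 28874130 reads in all. The clone libraries thus lay within a narrow band each, and no clone library came near the control level.

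MGMT had 15.5 reads per 1e+06 reads on genes in KO1 and 19.3 in KO2, against fewer than 0.104 in control, the rate that 3 reads over the 3 control libraries would give. Set against that rate, MGMT mRNA was at least 149-fold higher in KO1 and at least 186-fold higher in KO2. MGMT was chosen for having no read in control, so these bounds are a description and carry no confidence level. These bounds allow only for counting error at the control zero, with the clone reads taken as counted. In bulk RNA a change in the share of cells that express a gene and a change in RNA per cell cannot be told apart. The level reached was that of a gene near the middle of the table. MGMT averaged 15.8 ± 0.400 TPM in KO1 (SD, n = 3), above 47.1% of genes, and 19.2 ± 0.374 TPM in KO2 (SD, n = 3), above 52.7%.

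The rule did not use the difference between the clones, so it was tested. MGMT was 0.28 higher in KO2 than in KO1 on the log2 scale (95% interval -0.05 to 0.61), and the libraries of the clones did not overlap. The test was limma with a variance trend on the deposited log2 TPM over all 9 libraries, adjusted over 14512 genes, and it did not call the difference (adjusted p = 0.196). That fit takes the spread and the trend of MGMT partly from control libraries without a read, whose values the rule used. It therefore cannot decide whether the clones differed. The same difference was called with only the libraries of KO2 and KO1 in the fit (limma adjusted p = 0.0193). It was also called with all 9 libraries and no variance trend (limma adjusted p = 0.00309). That fit, too, takes the spread of MGMT partly from the control libraries. Over 19 alternatives the limma adjusted p ranged from 0.00309 to 0.405, with 5 under 0.05. Of these alternatives, only the fit of KO2 and KO1 alone leaves the control out.

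**Figure D1:**
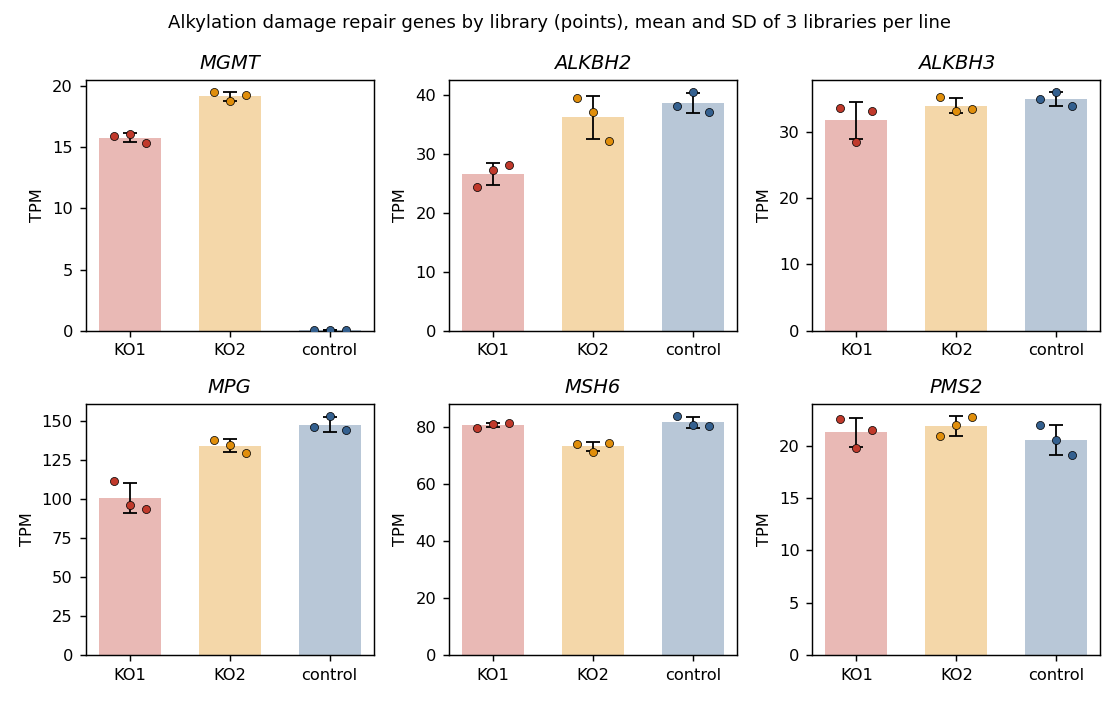
TPM of the 6 genes in KO1, KO2 and control libraries. Points are libraries A to C from left to right, bars are means of 3 libraries and error bars are SD, and each vertical axis starts at 0. MGMT stands at 15.4 to 16.1 TPM in KO1 and 18.8 to 19.5 TPM in KO2 with no read in control, while the other 5 genes are read in all 9 libraries.

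Of the oxidative demethylases, ALKBH2 was lower in KO1 and ALKBH3 was not called. ALKBH2 (ENSG00000189046, chromosome 12, 109088188 to 109093631, minus strand) had 24.5, 27.3 and 28.1 TPM in KO1 libraries A to C, 39.5, 37.1 and 32.3 TPM in KO2, and 38.2, 40.6 and 37.2 TPM in control. All 3 KO1 libraries lay below all others, and KO2 overlapped control. KO1 held 68.7% of the control level (log2 fold change -0.54, SE 0.08, limma adjusted p = 0.000835). KO2 differed from control by -0.10 on the log2 scale (95% interval -0.28 to 0.09, limma adjusted p = 0.417), and KO2 exceeded KO1 by 0.44 (SE 0.08, limma adjusted p = 0.00319). These values rest on 487 reads in KO1, 625 in KO2 and 729 in control.

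ALKBH3 (ENSG00000166199, chromosome 11, 43880811 to 43920274, plus strand) did not pass the test in any comparison. It had 33.6, 28.5 and 33.1 TPM in KO1, 35.3, 33.1 and 33.4 TPM in KO2, and 34.9, 36.0 and 33.8 TPM in control. The KO1 libraries all lay below the control libraries, by a small gap, and the log2 difference was -0.14 (95% interval -0.30 to 0.01, limma adjusted p = 0.137). For KO2 the difference from control was -0.04 (95% interval -0.20 to 0.11, limma adjusted p = 0.683). A processed pseudogene, SEC14L1P1, lies inside ALKBH3 on the same strand over 2181 bases and had 4.88 to 6.43 TPM per line on average. The ratio of ALKBH2 to ALKBH3 in TPM was 0.844 ± 0.11 in KO1 and 1.07 ± 0.088 in KO2, against 1.11 ± 0.018 in control (SD, n = 3 each).

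MPG, which starts base excision at alkylated purines, was the most abundant of the 6 in every line. MPG (ENSG00000103152, chromosome 16, 77007 to 85851, plus strand) had 112, 96.3 and 93.6 TPM in KO1, 138, 135 and 130 TPM in KO2, and 146, 153 and 144 TPM in control. The 3 lines did not overlap, with KO1 lowest and control highest. KO1 held 67.9% of the control level (log2 fold change -0.56, SE 0.06, limma adjusted p = 0.000142), and KO2 exceeded KO1 by 0.42 (SE 0.06, limma adjusted p = 0.00104). KO2 held 90.8% of the control level, which did not pass (log2 fold change -0.14, 95% interval -0.28 to 0.002, limma adjusted p = 0.127), although it passed with only KO2 and control in the fit and without KO1 replicate A (limma adjusted p = 0.048 and 0.0312).

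MPG shares 1581 bases at its end with NPRL3, which lies on the opposite strand and encodes a subunit of the GATOR1 complex that restrains mTORC1. NPRL3 averaged 56.3 ± 4.46 TPM in KO1 and 41.0 ± 3.91 TPM in KO2, against 39.9 ± 1.04 TPM in control, so it was higher in KO1 where MPG was lower (log2 fold change 0.50, limma adjusted p = 0.000924). The library kit keeps strand, but no source used here says whether the counting used it, and otherwise reads in the shared bases cannot be told apart. RHBDF1, whose nearest end is 652 bases from MPG, was lower in KO1 (log2 fold change -0.29, limma adjusted p = 0.0205) and in KO2 (-0.32, limma adjusted p = 0.0147).

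The mismatch recognition subunit MSH6 was lower in KO2. MSH6 (ENSG00000116062, chromosome 2, 47695530 to 47810063, plus strand) had 79.8, 81.1 and 81.3 TPM in KO1, 73.9, 71.3 and 74.5 TPM in KO2, and 83.9, 80.9 and 80.3 TPM in control. The 3 KO2 libraries lay below the other 6, while KO1 overlapped control. KO2 held 89.6% of the control level (log2 fold change -0.16, SE 0.04, limma adjusted p = 0.0104). KO1 differed from control by -0.02 (95% interval -0.10 to 0.07, limma adjusted p = 0.761). The difference of KO2 from KO1 was -0.14 (SE 0.04, limma adjusted p = 0.0199) and was lost under 5 of 19 alternatives, at -0.09 with each library centred on its median (limma adjusted p = 0.102) and at an adjusted p of 0.0579, 0.0686 and 0.0553 without KO1 replicate B, KO1 replicate C and KO2 replicate B. FBXO11 overlaps the annotated span of MSH6 on the opposite strand over 20748 bases and was not called in KO1 (0.13 on the log2 scale) or in KO2 (0.04).

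PMS2 (ENSG00000122512, chromosome 7, 5970925 to 6009130, minus strand), which cuts the strand in mismatch repair, did not pass the test in any comparison. It had 22.6, 19.8 and 21.5 TPM in KO1, 20.95, 22.04 and 22.80 TPM in KO2, and 22.0, 20.6 and 19.1 TPM in control, and the 3 lines overlapped. The log2 difference from control was 0.05 (95% interval -0.12 to 0.22, limma adjusted p = 0.638) in KO1 and 0.09 (95% interval -0.07 to 0.26, limma adjusted p = 0.381) in KO2. PMS2 has near-identical copies on its chromosome, and the counting could split reads between them, so its level is uncertain. PMS2CL averaged 16.8 ± 1.78 TPM in KO1 and 17.6 ± 1.26 TPM in KO2, against 16.8 ± 0.781 TPM in control, and PMS2P1 had 20.4, 20.2 and 19.4 TPM in the same order. None of PMS2CL, PMS2P1, PMS2P3 and PMS2P4 was called. AIMP2, which lies 125 bases from PMS2 on the opposite strand and encodes a scaffold of tRNA synthetases, was higher in KO1 (log2 fold change 0.21, limma adjusted p = 0.0023) and stood at -0.01 in KO2.

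The order of levels by TPM was nearly the same in the 3 lines for the genes that were read. In KO1 it ran MPG, MSH6, ALKBH3, ALKBH2, PMS2 and MGMT, and no 2 neighbours in that order overlapped. In KO2, ALKBH2 (32.3 to 39.5 TPM) stood above ALKBH3 (33.1 to 35.3 TPM) but overlapped it, and MGMT stood last. In control ALKBH2 (37.2 to 40.6 TPM) stood above ALKBH3 (33.8 to 36.0 TPM) without overlap, and MGMT had no read.

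**Figure D2:**
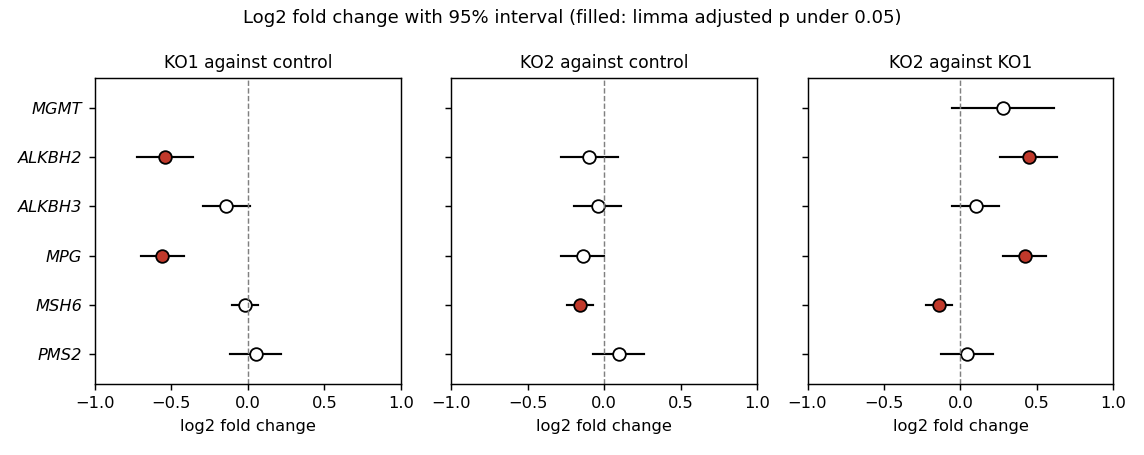
Log2 fold change with its 95% interval for KO1 against control, KO2 against control and KO2 against KO1, from limma on 9 libraries, with filled points where the adjusted p was under 0.05. MGMT is drawn for KO2 against KO1 only, at 0.28, since its values against control chose it. ALKBH2 and MPG lie at -0.54 and -0.56 in KO1, and MSH6 at -0.16 in KO2.

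The calls among these genes were set beside those over all tested genes. In KO1 against control 2 of the 5 genes other than MGMT were called, both lower, where 34.3% of 14512 tested genes were called, 20.2% higher and 14.1% lower. In KO2 against control 1 of 5 was called, MSH6, lower, where 30.4% of tested genes were called, 15.6% higher and 14.8% lower. In KO2 against KO1 3 of 6 were called, ALKBH2 and MPG higher and MSH6 lower, where 28.7% of tested genes were called, 11.8% higher and 16.9% lower. The median log2 difference of all tested genes was 0.03 in KO1 and 0.01 in KO2 against control and -0.04 in KO2 against KO1. The split of calls over all genes depended on the scaling: 58.9% of called genes were higher in KO1 as deposited and 47.1% with limma-voom on recovered reads, and 41.1% were higher in KO2 than in KO1 as deposited and 55.5% after median centring. The 3 comparisons share libraries, so their values are given side by side and not as independent results.

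Facts of the libraries bear on these values. Reads on genes, recovered from the deposited values, ran from 7848089 to 11393206 per library, and 3 reads, the limit used for a count of 0, are 0.263 to 0.382 reads per 1e+06 reads on genes in a single library. PCIF1 itself averaged 24.0 ± 1.77 TPM in KO1 and 60.3 ± 3.86 TPM in KO2, against 57.6 ± 3.84 TPM in control, with a log2 fold change of -1.26 in KO1 (limma adjusted p = 1.65e-06) and 0.07 in KO2 (limma adjusted p = 0.542). A level that is not lowered does not check the label of KO2, since an edit can end a protein without lowering its mRNA. Of 12 melanocyte and melanoma markers 3 had values, MITF, PAX3 and PRAME, and the other 9 were looked up and had none. The summed TPM of these 3 was 156 to 158 in KO1 and 171 to 175 in KO2, against 109 to 110 in control. PAX3 and PRAME were called higher in both clones, while MITF, at 26.3 ± 2.49 TPM in KO1 and 50.0 ± 2.26 TPM in KO2, against 37.1 ± 1.14 TPM in control, was called lower in KO1 (limma adjusted p = 0.000531) and higher in KO2 (limma adjusted p = 0.00127). Of the fibroblast markers LUM had 57 reads in KO1 and 26 in KO2, against 1 in control, while COL1A1 had 56 in KO1 and 29 in KO2, against 65 in control. Of 6 epithelial markers KRT10 had values, 35.6 TPM in KO1 and 35.7 TPM in KO2, against 37.4 TPM in control, and none of 7 endothelial and blood cell markers did. The part of these differences in the results on repair genes was not tested.

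Of 14 genes of the ALKBH family and partners of ALKBH3, all tested, 4 were called higher and 2 lower in KO1, and 3 higher and 0 lower in KO2 against control, with median log2 differences of 0.05 and 0.01. Here and in the lists that follow, the shares called over all tested genes are 34.3% in KO1 (20.2% higher and 14.1% lower) and 30.4% in KO2 (15.6% higher and 14.8% lower), and nothing is read as particular to a list. Beside ALKBH2, the gene called lower in KO1 was ALKBH7, a mitochondrial member, at -0.39 (limma adjusted p = 0.0396). ASCC2, a ubiquitin-binding subunit of the complex that brings the ASCC3 helicase and ALKBH3 to alkylated DNA, was the one gene called in both clones, at 42.9 ± 2.13 TPM in KO1 and 46.1 ± 2.78 TPM in KO2, against 37.9 ± 1.32 TPM in control (log2 fold change 0.18 and 0.28, limma adjusted p = 0.0459 and 0.00569). ASCC1, another subunit, had a log2 difference of 0.44 in KO2 (limma adjusted p = 0.00667) and -0.06 in KO1. The RNA demethylases ALKBH5 and FTO were higher in KO1, ALKBH5 with a log2 fold change of 0.20 (limma adjusted p = 0.0103) and FTO with 0.30 (limma adjusted p = 0.0325), and stood at 0.02 and -0.01 in KO2.

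In base excision repair 26 of 27 genes were tested, with NEIL1 under the filter. In KO1 2 were higher and 3 lower, and in KO2 5 were higher and 3 lower against control, with medians of -0.09 and -0.07. The glycosylases differed among themselves. NEIL2, which acts on oxidised bases, was lower in both clones, at 16.1 ± 1.69 TPM in KO1 and 17.9 ± 1.06 TPM in KO2, against 22.0 ± 0.729 TPM in control (log2 fold change -0.46 and -0.30, limma adjusted p = 0.00273 and 0.0244). NTHL1, which acts on oxidised pyrimidines, was lower in KO1 (-0.41, limma adjusted p = 0.00186) and not called in KO2 (-0.09), as MPG was. OGG1, which removes oxidised guanine, was picked with NTHL1, MUTYH and RAD18 after values were seen. OGG1 averaged 15.3 ± 1.04 TPM in KO1 and 22.0 ± 0.324 TPM in KO2, against 14.0 ± 1.03 TPM in control, and was higher in KO2 (log2 fold change 0.66, limma adjusted p = 0.000158). UNG, the uracil glycosylase whose gene starts 3966 bases from ALKBH2, was not called in KO1 (-0.03) or in KO2 (-0.09).

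The steps after MPG were also measured. APEX1, the endonuclease that cuts the abasic site, was higher in KO2 (log2 fold change 0.14, limma adjusted p = 0.0137) and at 0.07 in KO1. POLB, the gap-filling polymerase, averaged 13.1 ± 1.09 TPM in KO1 and 10.1 ± 1.80 TPM in KO2, against 14.6 ± 1.51 TPM in control, and was lower in KO2 (log2 fold change -0.53, limma adjusted p = 0.0135). The scaffold XRCC1 was not called in KO1 (0.03) or in KO2 (-0.10). FEN1, the flap nuclease of the long-patch branch, was higher in both clones, at 301 ± 17.4 TPM in KO1 and 295 ± 6.0 TPM in KO2, against 243 ± 14.5 TPM in control (log2 fold change 0.31 and 0.28, limma adjusted p = 0.00156 and 0.00261).

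In mismatch repair 20 of 21 genes were tested, with MLH3 under the filter. In KO1 2 were higher and 4 lower, and in KO2 1 was higher and 4 lower against control, with medians of -0.02 and 0.003. MSH3, a recognition subunit related to MSH6, was not called in KO1 (-0.01) or in KO2 (-0.01). PMS1, a relative of PMS2, was lower in KO1 (-0.36, limma adjusted p = 0.0175) and stood at -0.19 in KO2. The sliding clamp PCNA was lower in both clones, at 375 ± 18.9 TPM in KO1 and 360 ± 15.5 TPM in KO2, against 513 ± 17.7 TPM in control (log2 fold change -0.45 and -0.51, limma adjusted p = 8.34e-05 and 2.89e-05). POLD4, a small subunit of the repair polymerase, was lower in both (-0.45 and -0.34, limma adjusted p = 0.00186 and 0.00962), and the clamp loader subunit RFC2 was higher in both (0.13 and 0.16, limma adjusted p = 0.044 and 0.018).

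**Figure D3:**
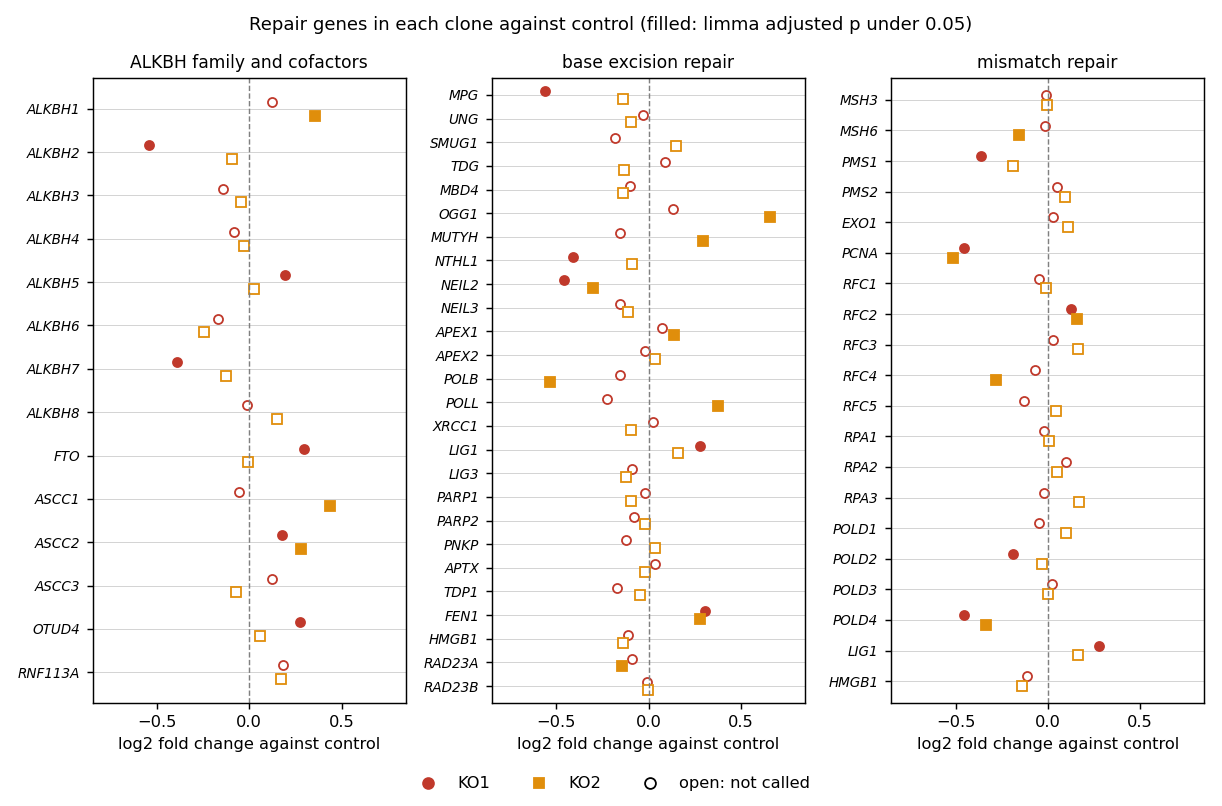
Log2 fold change against control of every tested gene of 3 lists, in KO1 (circles) and KO2 (squares), filled where the limma adjusted p was under 0.05. Most points lie within 0.5 of 0. Points past that include ALKBH2 (-0.54) and MPG (-0.56) in KO1, and OGG1 (0.66), POLB (-0.53) and PCNA (-0.51) in KO2.

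Unrepaired methylated guanine leads through mismatch repair to broken forks, so checkpoint, recombination and crosslink genes were listed too. Of 41 genes 7 were higher and 4 lower in KO1, and 9 higher and 1 lower in KO2 against control. BARD1, the partner of BRCA1, was lower in both clones, at 5.39 ± 0.955 TPM in KO1 and 4.85 ± 0.393 TPM in KO2, against 10.6 ± 0.98 TPM in control (log2 fold change -0.99 and -1.12, limma adjusted p = 0.000737 and 0.000307). FANCD2, of the crosslink pathway, was higher in both (log2 fold change 0.23 for KO1 and 0.86 for KO2, limma adjusted p = 0.0108 and 3.56e-06). RAD52 was higher by 0.35 and 0.29 (limma adjusted p = 0.0129 and 0.0318), and CLSPN, which carries the signal from ATR to CHEK1, by 0.48 and 0.14 (limma adjusted p = 6.36e-05 and 0.0468). RAD18, the ligase that opens translesion synthesis, was lower in KO1 (-0.16, limma adjusted p = 0.0472) and higher in KO2 (0.67, limma adjusted p = 1.39e-05).

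The genes that write, read and remove DNA methylation were listed because of what is known of the MGMT promoter. In KO1 9 of 13 were higher and 0 lower than in control, where 20.2% of all tested genes were higher, and in KO2 2 were higher and 2 lower, with medians of 0.22 and -0.01. The maintenance methyltransferase DNMT1 averaged 188 ± 4.65 TPM in KO1 and 169 ± 10.2 TPM in KO2, against 162 ± 1.79 TPM in control, and was called in KO1 (log2 fold change 0.22, limma adjusted p = 0.00462) and not in KO2 (0.06, limma adjusted p = 0.32). TET3, which oxidises methylcytosine, was higher in KO1 by 0.60 (limma adjusted p = 0.000481) and stood at 0.04 in KO2. The methyl-CpG binding proteins MBD1 and MBD2 were higher in both clones, MBD1 by 0.28 and 0.30 (limma adjusted p = 0.00189 and 0.00109) and MBD2 by 0.31 and 0.28 (limma adjusted p = 0.00267 and 0.00523). The part of these genes in the level of MGMT was not tested.

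Of 19 replication and S phase genes 9 were higher and 3 lower in KO1, and 3 higher and 1 lower in KO2 against control. The helicase subunit MCM4 averaged 352 ± 2.55 TPM in KO1 and 347 ± 3.65 TPM in KO2, against 250 ± 2.57 TPM in control (log2 fold change 0.49 and 0.47, limma adjusted p = 1.29e-06 and 1.49e-06). CCNE2, a cyclin of S phase entry, was higher by 0.68 and 0.38 (limma adjusted p = 0.000212 and 0.00649). TYMS, which makes thymidylate, was lower in both clones (log2 fold change -0.38 and -0.52, limma adjusted p = 1.58e-05 and 1.49e-06). Their part in the levels of the mismatch repair genes was not tested.

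Around MGMT, genes of chromosome 10 stood higher in KO2 as well. Within 3 Mb of it 12 other genes were tested, and their median log2 difference was -0.02 in KO1 and 0.41 in KO2 against control. In KO2 all 12 differences were positive and 9 were called higher, while in KO1 5 were positive, 3 were called higher and 2 lower. Over all tested genes 15.6% were called higher in KO2, and 20.2% higher and 14.1% lower in KO1. MGMT, which was read in both clones, is not among the 12. Between the clones 9 of the 12 were higher and 1 lower in KO2, where 11.8% and 16.9% of all tested genes were. Their median was 0.50, beside 0.28 for MGMT.

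The nearest gene in the table, the transcription factor EBF3, lies 64250 bases past MGMT and averaged 14.1 ± 0.856 TPM in KO1 and 21.1 ± 2.43 TPM in KO2, against 13.2 ± 1.07 TPM in control. EBF3 was called in KO2 (log2 fold change 0.68, limma adjusted p = 0.000677) and not in KO1 (0.10). On the other side MKI67, the proliferation antigen, lies 1340767 bases away and averaged 200 ± 7.44 TPM in KO1 and 168 ± 10.9 TPM in KO2, against 135 ± 5.46 TPM in control (log2 fold change 0.56 and 0.31, limma adjusted p = 4.63e-05 and 0.00176). INPP5A (0.52 and 0.74, limma adjusted p = 0.000187 and 1.67e-05), near the far edge of the window, was likewise higher in both clones. LINC02870, also near that edge, had 51 reads in KO1 and 72 in KO2, against 14 in control (log2 difference 1.94 and 2.54). At 0.842 TPM in control it passed the filter only through the clones. Its values against control are thus a description, though the window counts include its calls. PTPRE, just beyond MKI67 and below the filter, went the other way, with 7 reads in KO1 and 5 in KO2, against 59 in control. BNIP3, an inducer of mitophagy, stood at 64.5 ± 2.24 TPM in KO1 and 103 ± 4.28 TPM in KO2, against 70.7 ± 3.63 TPM in control, and was called in KO2 (log2 fold change 0.54, limma adjusted p = 3.97e-05).

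**Figure D4:**
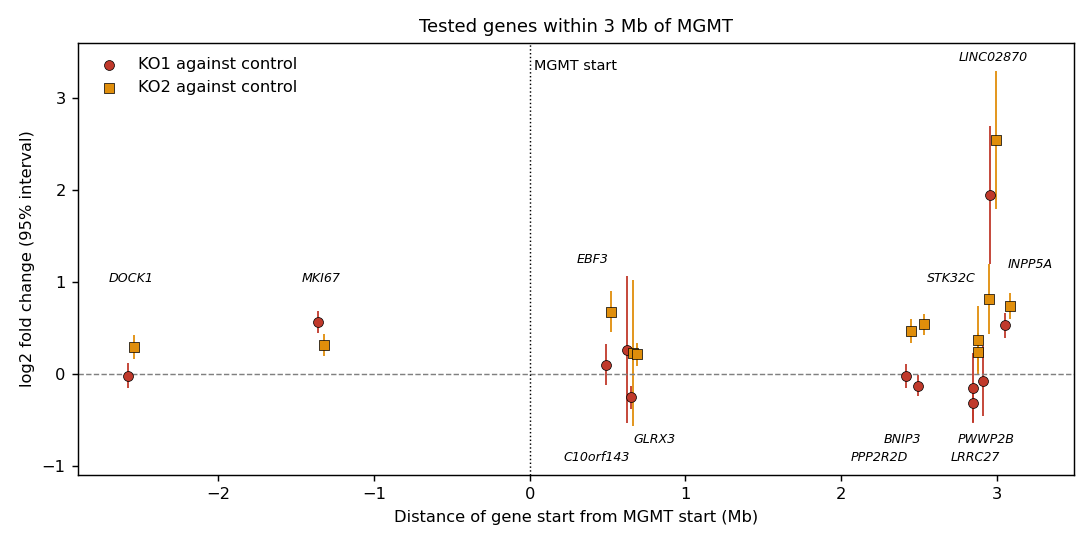
Log2 fold change against control, with its 95% interval, of the 12 tested genes within 3 Mb of MGMT, against the distance of their start from the MGMT start, in KO1 (circles) and KO2 (squares, drawn slightly to the right). All 12 squares lie above 0, with a median of 0.41, while the circles have a median of -0.02. LINC02870 is the highest in both clones, with 14 reads in control.

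The same window was drawn around the other genes. Median log2 differences of the tested genes within 3 Mb, each gene left out of its own window, lay close to 0 for KO1 and KO2 at ALKBH2 (0.04 and -0.02 over 58 genes), ALKBH3 (0.03 and -0.08 over 28), MPG (-0.02 and 0.07 over 115), MSH6 (-0.01 and -0.02 over 20) and PMS2 (0.05 and 0.02 over 37). OGG1, RAD18 and FANCD2, on chromosome 3, had neighbours with medians of 0.72, 0.74 and 0.68 in KO2 and 0.11, 0.13 and 0.11 in KO1, from windows that overlap each other. PCNA on chromosome 20 had neighbours with medians of -0.56 in KO1 and -0.54 in KO2, beside -0.45 and -0.51 for PCNA. Of these 43 neighbours 36 and 37 were called lower, where 14.1% and 14.8% of all tested genes were. For BARD1 the 13 neighbours had medians of -0.15 and -0.18, beside -0.99 and -1.12. The 23 neighbours of PMS1 on chromosome 2 had medians of 0.47 in KO1 and 0.40 in KO2, opposite in sign to PMS1 itself at -0.36 and -0.19. Of these 23 neighbours 16 and 12 were called higher, where 20.2% and 15.6% of all tested genes were. The 158 neighbours of NTHL1 had medians of 0.03 and 0.08, beside -0.41 and -0.09. The windows around OGG1, RAD18, FANCD2, PCNA, BARD1, PMS1 and NTHL1 were chosen after values were seen, and neighbouring genes are not independent of each other. The number of copies of these regions was not measured.

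Genes with the pattern most like MGMT were ranked by the Pearson correlation of log2 TPM over the 9 libraries, which fall into 3 lines, as a description. The first 8 were PNMA8A (r = 0.9999), MEOX2, CYP2R1, PDE3B, FST, MIR3667HG, SNHG14 and ZNF415 (r = 0.998). PNMA8A, of the paraneoplastic Ma antigen family, averaged 17.8 ± 0.405 TPM in KO1 and 21.1 ± 1.79 TPM in KO2 with 0 reads in control. MEOX2, a homeobox gene, averaged 9.42 ± 0.796 TPM in KO1 and 11.2 ± 1.02 TPM in KO2 with 0 reads in control. Of the 8, 6 had 0 control reads, while FST and SNHG14 were read in control. FST averaged 412 ± 14.6 TPM in KO1 and 412 ± 2.30 TPM in KO2, against 217 ± 1.86 TPM in control. SNHG14 averaged 24.4 TPM in KO1 and 25.9 TPM in KO2, against 12.6 TPM in control. The correlation does not depend on the size of a change, so these genes do not share the silent control level of MGMT. CYP2R1 and PDE3B are neighbours on chromosome 11, 5.396 kb apart, and the others lie on different chromosomes from MGMT.

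Over all genes measured, 38 had 0 reads in the 3 control libraries, and 10 of these had at least 10 reads in each of the 6 clone libraries. By reads in the clones MGMT stood second of the 10, with 966, after PNMA8A with 1119 and before GLB1L2 with 559. The promoters of 6 of the 8 most similar genes are in the RefSeq table, and they hold 25 (PNMA8A), 16 (MEOX2), 5 (CYP2R1), 20 (FST), 4 (SNHG14) and 11 (ZNF415) CG pairs in 250 bases, against the 36 of MGMT. For CYP2R1 3 starts are listed. The start taken for SNHG14 is base 24823608, outside its gene span, which begins at 24978583, so its count may not belong to the RNA that was read.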

How the data were processed

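Messenger RNA of 9 input libraries was analysed. The authors deposited log2 TPM values of 15258 genes, to which a small prior count had been added. The submitters' processing notes name edgeR 3.12.1, featureCounts, HISAT2 2.0.4, deepTools 3.0.2, SAMtools 1.7, R 3.3.3 and the build hg38, with no order or settings. Whole reads were recovered for 100% of genes (tolerance 1e-06 reads) and used for read counts, bounds and limma-voom.

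The test was limma-trend (limma 3.58.1, R 4.3.3) on the deposited log2 TPM of all 9 libraries, 1 mean per line, with 6 residual degrees of freedom. Only the 14512 genes that averaged 1 TPM or more were tested, with p-values adjusted over them by Benjamini and Hochberg's method. A two-sided adjusted p below 0.05 is a call. A fold change is on the log2 scale with the authors' prior, so that of a gene near the floor depends on it, and for MGMT a bound was used. Replicate letters were checked and showed no pairing of libraries, so no block was used. With 3 libraries against 3 an exact permutation test cannot go below 0.1 and was not used.

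Symbols and positions came from GENCODE 44 on hg38, which held 15138 identifiers, and 120 had no match. Promoters came from RefSeq. The genes, lists and tests were chosen with earlier results of these data known. From each list, up to 4 genes called in both clones in the same direction were named by mean change, or else genes called in any comparison. Genes within 3 Mb of MGMT, nearest or overlapping genes and the 8 genes most like MGMT were also named. Other named list genes were chosen for their role after values were seen. Some genes of the mismatch repair list are not reported here and were left out of its counts.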

Additional observations from a re-analysis of the deposited data

Results flagged for a closer look

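Some repair genes differed between the clones in a test of KO2 against KO1 (limma adjusted p under 0.05 over 14512 genes). Over all tested genes 28.7% were called in this comparison, and only genes that were called are listed here. ALKBH2 and MPG were higher in KO2, by 0.445 and 0.42 on the log2 scale, with all 3 KO2 libraries above all 3 KO1 libraries. MSH6 was lower in KO2, with a difference of -0.141, a call that was lost under 5 of 19 alternatives.

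Outside the 6 genes, KO2 exceeded KO1 by 0.833 at RAD18, 0.631 at FANCD2, 0.524 at OGG1, 0.446 at MUTYH and 0.322 at NTHL1. KO2 lay below KO1 at CLSPN (-0.337), CCNE2 (-0.301), MKI67 (-0.255) and TYMS (-0.145). RAD18, FANCD2 and OGG1 are on chromosome 3, and the tested genes within 3 Mb of each had median differences of KO2 from KO1 of 0.62, 0.60 and 0.62.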

How the results depend on the processing

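Against 19 alternatives (10 settings and 9 libraries left out in turn), no called result changed direction. All-gene calls stayed within 1.5 times: 3758 to 5602 in KO1 and 3401 to 5056 in KO2 against control, and 2952 to 4660 in KO2 against KO1. Among the 5 genes other than MGMT, 2 were called in KO1 under every alternative. In KO2 the 1 call became 2, with MPG added, when only KO2 and control were fitted, and leaving out a library gave 1 to 2. The fitted log2 value of MGMT against control depends on what is added before the logarithm: 9.17 in KO1 and 9.45 in KO2 as deposited, 4.03 and 4.30 with log2(TPM + 1), 2.05 and 2.27 with log2(TPM + 5). With KO2 against KO1, 2 to 4 of 6 genes were called. In the main fit 34.3% of all 14512 tested genes were called in KO1 and 30.4% in KO2 against control, and 28.7% in KO2 against KO1. The counts among the 6 genes are not read as particular to them.

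With the replicate letter as a block, 4375 genes were called in KO1, 3877 in KO2 and 3516 between the clones, and MSH6 between the clones was lost (adjusted p = 0.0502). Same-letter libraries deviated with correlations of -0.07 to 0.04 and libraries of different letters with -0.11 to 0.12. No pairing by letter was seen, which does not show that libraries of a letter share no batch. Depth limits MGMT, ALKBH2, ALKBH3 and PMS2 most, which rest on 140 to 284 reads per library where they were read.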
